A study of Mus musculus with 16 samples.

Results

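The BCL2 family genes described here are 10 genes that set whether a cell survives or dies through its mitochondria: Bcl2, Bcl2l1, Mcl1, Bax, Bak1, Bcl2l11, Bbc3, Pmaip1, Bid and Bad. They were found by matching these symbols to the mouse gene identifiers of the deposited table, and all 10 were present among its 24334 genes. RNA was sequenced from tumour cells enriched out of mice that carried tumours of LLC1, a Lewis lung carcinoma line of mouse origin. All samples were from day 16. The 4 groups of 4 libraries were Vehicle (DMSO), TMP195 at 50 mg/kg, an inhibitor of class IIa histone deacetylases, MYCi975 at 50 mg/kg, an inhibitor of the transcription factor MYC, and Combo, which received both compounds. The dose of each compound in Combo, the strain, sex and age of the mice, the enrichment method and whether each library came from its own animal are not stated in the labels. If libraries shared an animal, the p-values below would measure spread that is partly technical. All groups carried the same single tumour line.

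The proteins of this family meet at the outer membrane of the mitochondrion. BAX and BAK1 can form pores there that release cytochrome c and start the caspase cascade. BCL2, BCL-XL (from Bcl2l1) and MCL1 hold them back, and the BH3-only proteins BIM (from Bcl2l11), PUMA (from Bbc3), NOXA (from Pmaip1), BID and BAD either bind the survival proteins or activate the pore formers. Much of this control acts on the proteins themselves: MCL1 is degraded quickly, BID is activated by cleavage, and BAD is held inactive by phosphorylation. RNA levels therefore show only a part of it. MYC is known to sensitise cells to apoptosis, and class IIa histone deacetylases bind MEF2 transcription factors. The series, by its title, is about mitochondrial function when both are inhibited.

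Values are variance-stabilised and lie close to a log2 scale, on which a gene without reads is at 4.84. A difference of 1 is about a doubling for a well expressed gene, and smaller than the true fold change for a weak one. Levels are not corrected for gene length, so each gene is compared only with itself across libraries. All 10 genes passed the filter on low values (a value 1 or more log2 units over that minimum in 4 or more libraries), which 15715 genes passed in all. Their values ran from 7.12 for Bbc3 in Vehicle replicate 3 to 12.57 for Mcl1 in TMP195 replicate 1. Each gene was tested with limma in a model of all 16 libraries, with p-values adjusted by the Benjamini-Hochberg method over all genes tested in a comparison.

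The libraries differed within groups, and in leukocyte markers also between groups. Of 9 such markers 8 were higher in TMP195 than in Vehicle (median difference 0.75), with 0 called after adjustment by limma. The first principal component of all tested genes held 21.2% of the variance, and replicates 4 of Vehicle, TMP195 and MYCi975 scored 26.6 to 33.2 on it against at most 5.90 for the other 13 libraries. The mean of 9 leukocyte markers was highest in TMP195 replicate 1 (8.37), TMP195 replicate 2 (7.58) and MYCi975 replicate 3 (7.54), against 6.54 to 7.20 in the other 13. Among the epithelial markers, the keratin genes Krt8 and Krt18 were well expressed (10.2 to 11.5). Epcam was listed at the lowest value in 9 of 16 libraries and Cdh1 in 5. Fibroblast markers were also high in every library, among them Col3a1 (15.92 to 17.15) and Pdgfra (12.37 to 13.24), with Pdgfrb the lowest (6.32 to 9.26). Whether tumour cells or other cells gave rise to this RNA was not tested. In tumour tissue of this kind a lower value can mean fewer cells of a type or less RNA per cell, and these cannot be told apart here.

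None of the 10 genes differed between groups after adjustment in any of 6 comparisons. These set each treatment against Vehicle and Combo against TMP195 and against MYCi975; the last of them, the interaction, is the Combo difference from MYCi975 minus the TMP195 difference from Vehicle. The background was the same, with 0% of all tested genes called in each of them by limma. At an unadjusted p under 0.05, 2 of the 60 gene-by-comparison tests passed (3.33%), both of Bcl2. Over all genes the share at that p against Vehicle was 4.88% (TMP195), 3.03% (MYCi975) and 4.09% (Combo). It was 2.32% where Combo was set against MYCi975, 5.33% where it was set against TMP195, and 3% in the interaction. The count of members was thus near the background. The standard errors of the members' pairwise differences ran from 0.10 for Mcl1 to 0.28 for Pmaip1.

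**Figure D1:**
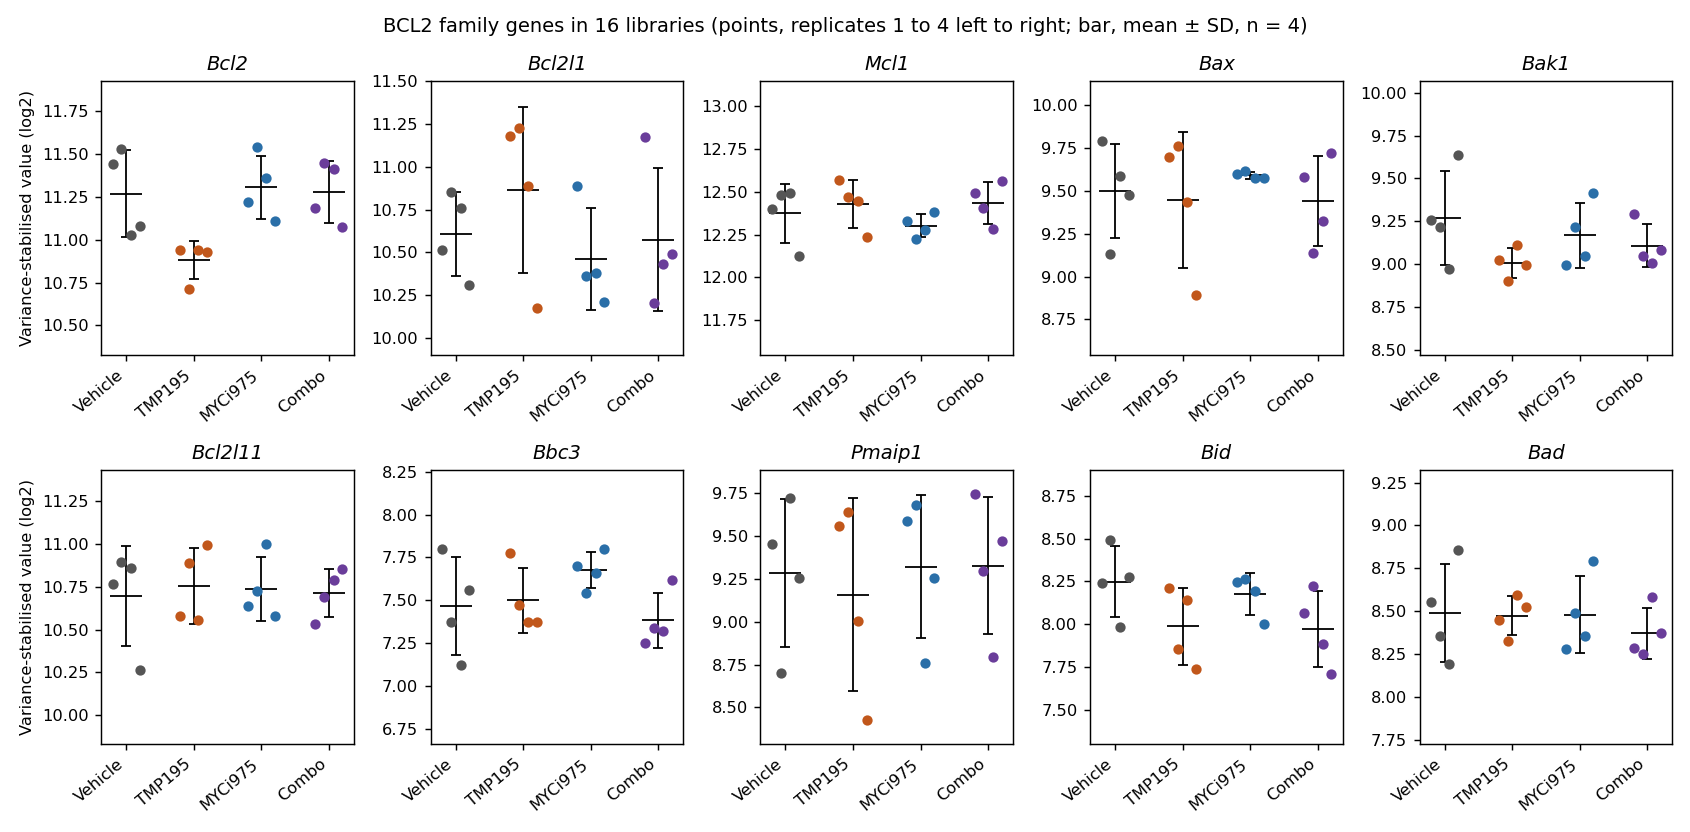
Variance-stabilised log2 values (y axis, 1.6 log2 units in each panel) of the 10 genes in the 4 groups (x axis). Points are libraries, with replicates 1 to 4 from left to right, and bars are means ± SD (n = 4). In the Bcl2 panel the 4 TMP195 libraries, 10.71 to 10.94, sit under all 12 others, whereas the groups overlap in the other panels.

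Bcl2, the founding survival gene of the family, had the clearest pattern. Its values were 11.44, 11.53, 11.03 and 11.08 in Vehicle replicates 1 to 4. In TMP195 they were 10.94, 10.71, 10.94 and 10.93. In MYCi975 they were 11.22, 11.54, 11.36 and 11.11, and in Combo 11.18, 11.45, 11.41 and 11.07. The TMP195 libraries were low without exception, and the other groups covered the same range as each other. The 4 TMP195 values lay below those of all 12 other libraries, which held for 10 of the 15715 genes tested (0.0636%). This way of looking was chosen after the values of Bcl2 were seen. Such a pattern is also rare when 16 libraries are ordered at random, so the low share does not by itself mark Bcl2 out.

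The group means of Bcl2 were 11.27 ± 0.25 (SD, n = 4) in Vehicle, 10.88 ± 0.11 in TMP195, 11.31 ± 0.18 in MYCi975 and 11.28 ± 0.18 in Combo. The TMP195 libraries differed from Vehicle by -0.39 (SE 0.13, 95% interval -0.67 to -0.11, unadjusted p = 0.0092, limma adjusted p = 0.945), with 4 of 4 libraries below the Vehicle mean. Combo differed from TMP195 by 0.40 (SE 0.13, interval 0.12 to 0.67, unadjusted p = 0.00791, adjusted p = 0.681). These comparisons share the TMP195 libraries and are not separate observations. Groups did not overlap for 2.5% of all genes between TMP195 and Vehicle (1.4% with TMP195 lower) and for 3.37% between Combo and TMP195 (1.75% with Combo higher). No other member had groups apart in these comparisons, and none did between MYCi975 and Vehicle, Combo and Vehicle, or Combo and MYCi975, where 1.5%, 3.32% and 1.71% of all genes did. MYCi975 and Combo differed from Vehicle by 0.04 and 0.01 (SE 0.13 each), and their intervals reached from -0.24 to 0.32 and from -0.27 to 0.29. The interaction was 0.36 (SE 0.19, interval -0.03 to 0.75, unadjusted p = 0.0718, adjusted p = 1), so a difference between the TMP195 effect alone and in the presence of MYCi975 did not pass the test. In the test of any difference among the 4 groups Bcl2 had an unadjusted p of 0.0143 (adjusted p = 0.999), where 3.83% of all genes were under 0.05.

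**Figure D2:**
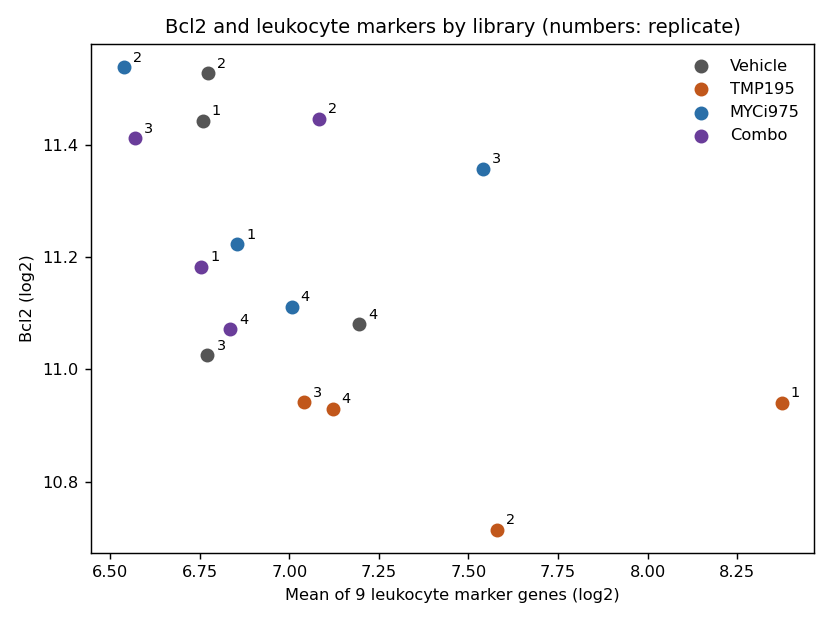
Bcl2 (y axis, log2) against the mean of 9 leukocyte marker genes (x axis, log2) in the 16 libraries, coloured by group and numbered by replicate. TMP195 replicates 3 and 4 (markers at 7.04 and 7.12) lie at the same Bcl2 level as TMP195 replicate 1 (markers at 8.37), and below the libraries of other groups with similar marker levels. TMP195 replicate 2 (markers at 7.58) has the lowest Bcl2 value, 10.71.

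Leukocyte markers were also higher in TMP195, so the values are given side by side in the plot of Bcl2 against these markers. Of the 9 markers 8 were above Vehicle in TMP195, with a median difference of 0.75, and the library means ran from 7.04 to 8.37 against 6.76 to 7.20 in Vehicle, 6.54 to 7.54 in MYCi975 and 6.57 to 7.08 in Combo. Bcl2 was 10.94 both in TMP195 replicate 1, with the highest marker mean, and in TMP195 replicate 3, with the lowest of the group. TMP195 replicate 2, with a marker mean of 7.58, had the lowest Bcl2 value of all 16 libraries (10.71). MYCi975 replicate 3, with a marker mean of 7.54, had Bcl2 at 11.36. With the marker mean as a covariate the Bcl2 difference between TMP195 and Vehicle was -0.34 (SE 0.16, unadjusted p = 0.0523). Without the libraries highest in these markers, TMP195 replicate 1 and TMP195 replicate 2, it was -0.33 (SE 0.17, unadjusted p = 0.0634). Without all libraries numbered 4 it was -0.47 (SE 0.14, unadjusted p = 0.00609). Removal of any single library left it between -0.47 and -0.30, with the smallest size without Vehicle replicate 2. The cause of the Bcl2 difference was not tested.

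Between Combo and TMP195 the leukocyte markers were lower in 8 of 9 cases (median -0.81), and fibroblast markers were higher in 5 of 6 (median 0.31, Col1a1 at 1.25). The means of the fibroblast list ran from 12.58 to 13.15 in Combo and from 12.12 to 12.70 in TMP195. The Bcl2 difference between Combo and TMP195 was 0.34 with the leukocyte mean as a covariate (SE 0.17, unadjusted p = 0.0561) and 0.34 without TMP195 replicates 1 and 2 (SE 0.17, unadjusted p = 0.0571), so neither was under 0.05. It was 0.48 without all libraries numbered 4 (SE 0.14, unadjusted p = 0.00494). The part of the fibroblast markers in this difference was not tested.

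The start of the Bcl2 gene is shown because the results turned on this member, beside that of Bax, a member with an E-box, the kind of motif MYC binds, close to its start. The 250 bases before each RefSeq start are printed 5′ to 3′ on the gene's strand (build GRCm38.p6), and neither stretch overlaps an exon annotated in GENCODE M21. Capitals mark matches on either strand to the E-box CACGTG, the MEF2 consensus or the p53 half-site consensus.
Bcl2 (chr1:106714291-106714540, minus strand): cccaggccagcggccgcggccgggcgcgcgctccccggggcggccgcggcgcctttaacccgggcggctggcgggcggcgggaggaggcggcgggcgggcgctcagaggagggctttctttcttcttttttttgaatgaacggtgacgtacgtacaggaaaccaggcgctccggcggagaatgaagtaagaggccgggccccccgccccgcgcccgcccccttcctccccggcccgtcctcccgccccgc
Bax (chr7:45466899-45467148, minus strand): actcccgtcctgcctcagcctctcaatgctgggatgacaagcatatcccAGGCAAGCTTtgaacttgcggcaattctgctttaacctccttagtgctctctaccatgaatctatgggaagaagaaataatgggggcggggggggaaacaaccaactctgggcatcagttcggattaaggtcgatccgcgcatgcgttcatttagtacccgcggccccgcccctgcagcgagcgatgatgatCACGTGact
The Bcl2 stretch held none of the 3 motifs. The Bax stretch held 1 E-box, whose first base is 9 bases before the start, and 1 p53 half-site match starting 201 bases before it. Of 32851 RefSeq promoter windows of this length, 6.02% held the E-box, 2.92% the MEF2 consensus and 7.13% the p53 half-site. RefSeq windows were at hand for 9 of the 10 genes (15 windows), and beyond Bax they held an E-box in 1 window of Bbc3 and a MEF2 match in 1 window of Bcl2l1. A match describes letters in the window and does not show binding.

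Bcl2l1, whose main product BCL-XL protects many carcinoma cells, varied most among the survival genes. Its values were 10.52, 10.85, 10.76 and 10.31 in Vehicle and 11.18, 11.23, 10.89 and 10.18 in TMP195. They were 10.89, 10.36, 10.38 and 10.21 in MYCi975 and 11.17, 10.21, 10.43 and 10.49 in Combo. The highest values stood in TMP195 replicates 1 and 2 and in Combo replicate 1, and the lowest in TMP195 replicate 4, so every pair of groups overlapped. TMP195 differed from Vehicle by 0.26 (SE 0.23, unadjusted p = 0.284), the opposite sign to Bcl2, and MYCi975 by -0.15 (SE 0.23). The Bcl2l1 difference for TMP195 was 0.49 without TMP195 replicate 4 and -0.08 without TMP195 replicates 1 and 2, the libraries highest in leukocyte markers. Its spread within groups was larger than that of 88.6% of tested genes, and 95% intervals of about 0.49 on either side leave sizeable differences in both directions unresolved.

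Mcl1, which encodes a short-lived survival protein, was the steadiest member. It ranged from 12.13 in Vehicle replicate 4 to 12.57 in TMP195 replicate 1, and its spread within groups exceeded that of only 7.15% of tested genes. Group means were 12.37 ± 0.17 (SD, n = 4) in Vehicle, 12.43 ± 0.14 in TMP195, 12.30 ± 0.07 in MYCi975 and 12.44 ± 0.12 in Combo. The difference from Vehicle was 0.06 in TMP195 (interval -0.16 to 0.27), -0.07 in MYCi975 (-0.29 to 0.15) and 0.06 in Combo (-0.16 to 0.28). Changes of Mcl1 RNA beyond about 0.3 log2 units in either direction thus lay outside all 3 intervals. The list of 4 genes for MCL1 turnover held the ubiquitin ligase genes Huwe1, Fbxw7 and Btrc and the deubiquitinase gene Usp9x. In Combo it had a median of 0.09 against Vehicle, and Btrc (0.23, SE 0.11, unadjusted p = 0.0438, limma adjusted p = 0.987) had all 4 libraries above all 4 of Vehicle, as did 1.79% of all genes.

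The pore-forming genes differed in how much they varied. Bax was 9.79, 9.13, 9.59 and 9.48 in Vehicle, 9.70, 9.76, 9.44 and 8.89 in TMP195, and 9.58, 9.14, 9.32 and 9.72 in Combo. In MYCi975 the 4 values lay between 9.57 and 9.62, an SD of 0.02 against 0.26 to 0.40 in the other groups. Every MYCi975 value of Bax fell inside the range of each other group. The MYCi975 difference from Vehicle was 0.09 (SE 0.18, interval -0.29 to 0.47). In TMP195 the Bax difference was -0.05 (SE 0.18), but it was -0.33 without TMP195 replicates 1 and 2 and 0.13 without all libraries numbered 4.

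Bak1 was 9.26, 9.22, 8.97 and 9.64 in Vehicle, 9.02, 8.90, 9.11 and 8.99 in TMP195, 8.996, 9.21, 9.05 and 9.41 in MYCi975, and 9.29, 9.05, 9.01 and 9.08 in Combo. The highest library of Vehicle was replicate 4, and Vehicle replicate 3 lay among the TMP195 values. The Bak1 difference from Vehicle was -0.26 in TMP195 (SE 0.14, unadjusted p = 0.0697, limma adjusted p = 0.945), -0.10 in MYCi975 (SE 0.14) and -0.16 in Combo (SE 0.14). Without Vehicle replicate 4 these were -0.14, 0.02 and -0.04. Without Vehicle replicate 3 they were -0.36 (limma unadjusted p = 0.017), -0.20 and -0.26, and not called after adjustment. Each thus depended on single Vehicle libraries, in both directions.

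Of the BH3-only genes, Bid differed most from Vehicle. BID links death receptors to the mitochondrion. Its values were 8.24, 8.49, 7.98 and 8.27 in Vehicle, 8.21, 7.85, 8.14 and 7.74 in TMP195, 8.25, 8.26, 8.19 and 7.998 in MYCi975, and 8.06, 8.22, 7.88 and 7.71 in Combo. Low values stood in TMP195 and Combo, but Vehicle replicate 3 was as low as some of them and the groups overlapped. The Bid difference from Vehicle was -0.26 in TMP195 (SE 0.15, unadjusted p = 0.0968, limma adjusted p = 0.945), -0.28 in Combo (SE 0.15, unadjusted p = 0.0791, adjusted p = 0.987) and -0.07 in MYCi975 (SE 0.15). Both larger differences share the Vehicle libraries. They were -0.17 and -0.18 without all libraries numbered 4. Without Vehicle replicate 3 they were -0.35 and -0.37 (limma unadjusted p = 0.0385 and 0.0312), and not called after adjustment. Neither changed sign in any of 28 alternatives.

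Bbc3, which encodes PUMA, a BH3-only protein induced by p53, was the weakest member in expression relative to the lowest value of the table. Its values were 7.80, 7.37, 7.12 and 7.56 in Vehicle, 7.78, 7.47, 7.37 and 7.37 in TMP195, 7.70, 7.54, 7.66 and 7.80 in MYCi975, and 7.25, 7.34, 7.32 and 7.62 in Combo. MYCi975 had the highest mean, and Vehicle replicates 1 and 4, TMP195 replicate 1 and Combo replicate 4 lay inside its range. The Bbc3 difference was 0.21 for MYCi975 against Vehicle (SE 0.15, unadjusted p = 0.178). It was 0.10 without Vehicle replicate 3 (unadjusted p = 0.52) and 0.32 without Vehicle replicate 1 (unadjusted p = 0.0491, limma adjusted p = 0.997). Bbc3 differed by -0.29 for Combo against MYCi975 (SE 0.15, unadjusted p = 0.0684, limma adjusted p = 1). The interaction of Bbc3 was -0.33 (SE 0.21, unadjusted p = 0.142), -0.13 with leukocyte markers as a covariate, -0.21 without Vehicle replicate 3 and -0.44 without Vehicle replicate 1.

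Pmaip1, which encodes NOXA, the BH3-only partner of MCL1, varied more within groups than 93.8% of tested genes. Each group spanned about 1 log2 unit, from 8.70 to 9.73 in Vehicle, 8.43 to 9.64 in TMP195, 8.76 to 9.68 in MYCi975 and 8.80 to 9.75 in Combo. The group means lay within 9.16 and 9.33, far closer together than the libraries of any group. The TMP195 difference from Vehicle was -0.13 (SE 0.28), and -0.57 (SE 0.31, unadjusted p = 0.0881) without TMP195 replicates 1 and 2. It turned to 0.12 without TMP195 replicate 4 and to 0.11 (SE 0.31) without all libraries numbered 4. Bcl2l11, which encodes BIM, had group means between 10.70 and 10.76 and differences from Vehicle of 0.06, 0.04 and 0.02 (SE 0.15 each) in TMP195, MYCi975 and Combo. Its lowest library was Vehicle replicate 4 at 10.27. Bad had means from 8.37 ± 0.15 in Combo to 8.49 ± 0.29 in Vehicle, with differences from Vehicle of -0.01, -0.01 and -0.12 (SE 0.15 each), and its highest library was Vehicle replicate 4 at 8.86.

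**Figure D3:**
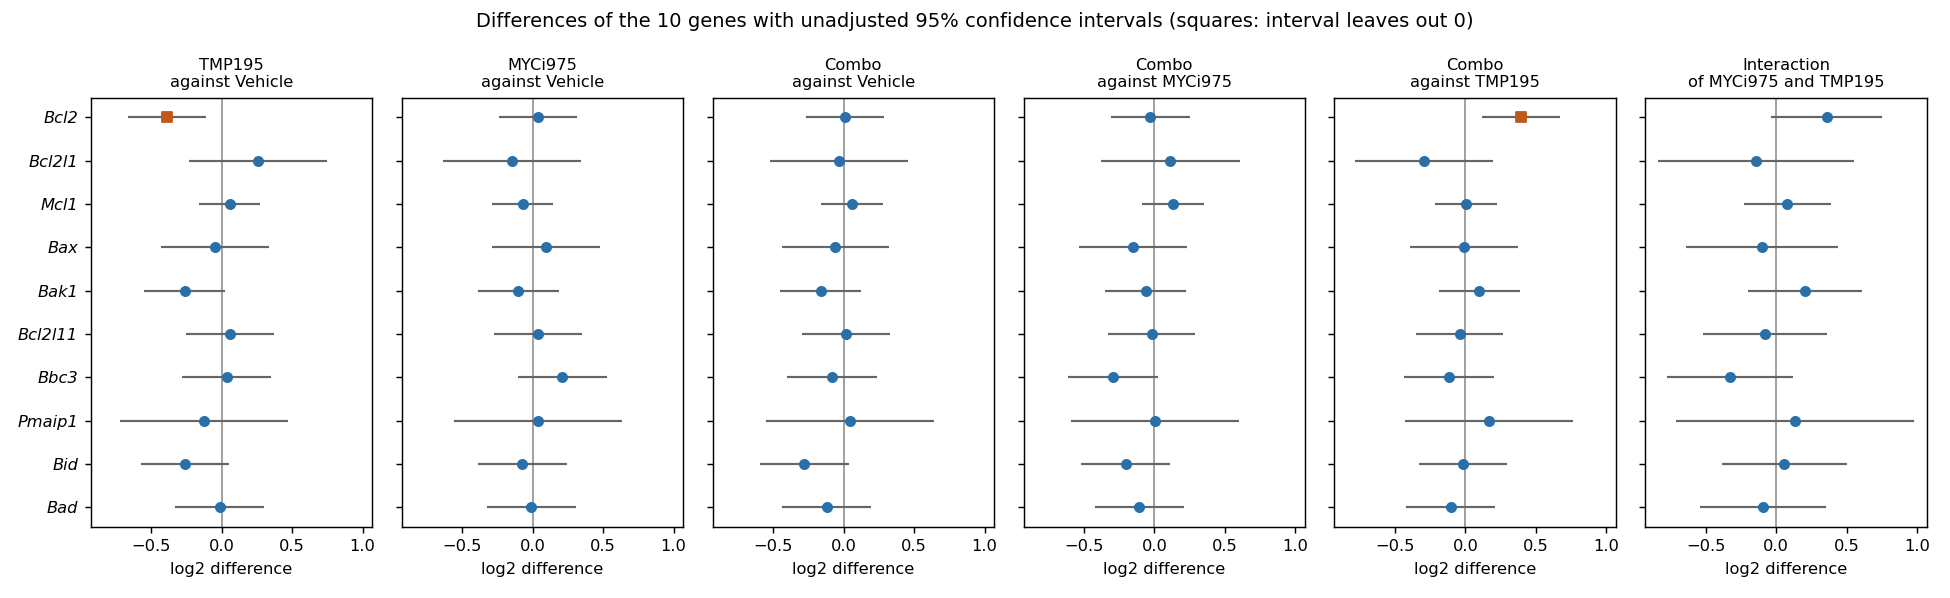
Log2 differences (x axis) of the 10 genes (y axis) in the 6 comparisons, as points with unadjusted 95% confidence intervals from limma. Squares mark intervals that leave out 0, which holds for Bcl2 in TMP195 against Vehicle (-0.39) and in Combo against TMP195 (0.40), and for none of the other 58 points.

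Read by role, the members did not move as a block. Against Vehicle, 6 of 10 were lower in TMP195 (median -0.03), 5 of 10 in MYCi975 (0.01) and 6 of 10 in Combo (-0.05). Of all genes tested 53.7%, 52.9% and 52.6% were lower in these comparisons, with medians of -0.01 in each. In Combo 7 of 10 were lower than in MYCi975 (49.8% of all genes) and 6 of 10 lower than in TMP195 (49.3%), and 5 of 10 had an interaction below 0 (48.2%). Of the 3 survival genes, TMP195 had 1 below and 2 above Vehicle. Both pore-forming genes were below Vehicle in TMP195 and Combo, without passing the test. Of the 5 BH3-only genes, 3 were lower in TMP195, 2 in MYCi975 and 3 in Combo.

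**Figure D4:**
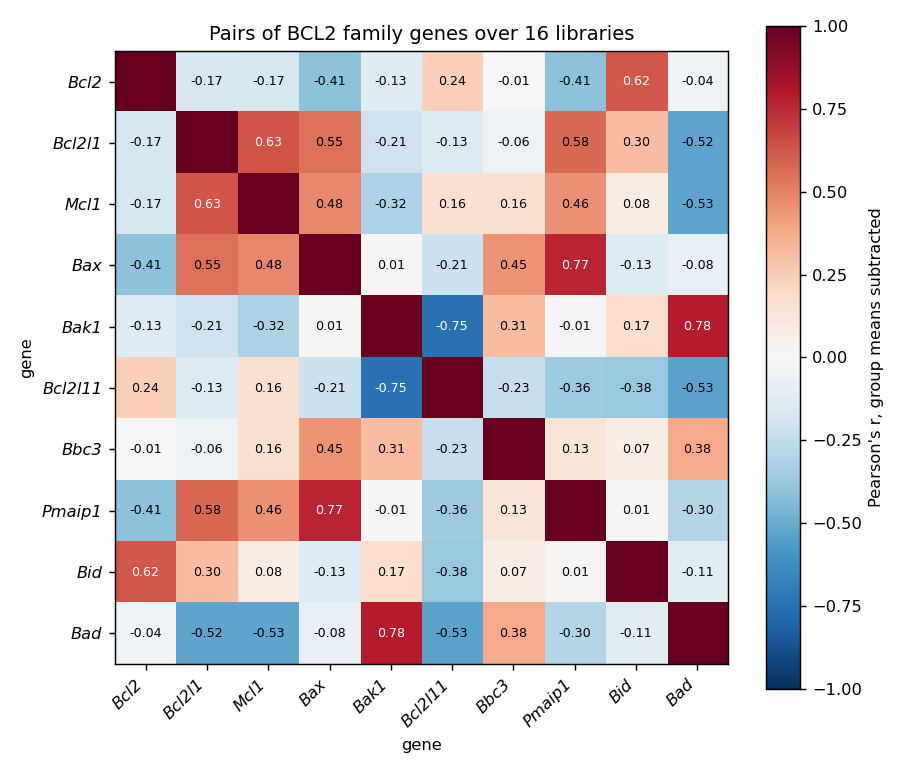
Pearson's r between pairs of the 10 genes over 16 libraries after the group means were subtracted (colour, from -1 to 1, with r printed in each cell). The strongest pairs are Bak1 with Bad (0.78), Bax with Pmaip1 (0.77) and Bak1 with Bcl2l11 (-0.75).

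Within groups some members varied together. With group means subtracted, Pearson's r over the 16 libraries was 0.78 between Bak1 and Bad and 0.77 between Bax and Pmaip1. It was 0.63 between Bcl2l1 and Mcl1 and 0.62 between Bcl2 and Bid. Bax, Pmaip1 and Bbc3 are known p53 targets, but Bbc3 had r of 0.45 with Bax and 0.13 with Pmaip1. The survival gene Bcl2l1 had 0.55 with Bax and 0.58 with Pmaip1. Bak1 and Bcl2l11 ran opposite to each other (-0.75). These values describe 16 points that share libraries and the same normalisation, and single libraries weigh on them. Vehicle replicate 4 was at once the highest library for Bak1 and Bad and the lowest for Bcl2l11 and Mcl1. TMP195 replicate 4 was the lowest for Bcl2l1 (10.18), Bax (8.89) and Pmaip1 (8.43).

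Among 12421 named genes, those most like each member by this measure were N6amt1 (0.91) and Tut4 (0.87) for Bcl2, and Ereg (0.91) and Ppp2r3c (0.91) for Bcl2l1. For Bax they were Inka2 (0.93) and Cpeb2 (0.88). For Pmaip1 they were Cnrip1 (0.92) and Mdm2 (0.91), the gene of the p53 ubiquitin ligase. For Bcl2l11 they were Supt20 (0.92) and Bcl2l15 (0.88), a relative of the same family. Bid was most like Snx10 (0.91) and Psme2 (0.90), Bak1 like Hdgf (0.90) and Dpm3 (0.90), and Bad like Arf5 (0.96) and Rpn1 (0.91). Mcl1 (Rps27a-ps2 at 0.83, Rsbn1 at 0.81) and Bbc3 (Cbx8 at 0.88, Dgcr6 at 0.83) had the least close neighbours. With so many genes compared over 16 libraries, high values of r occur in any case, and they are given as a description.

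The wider BCL2 family was examined from a list of 15 relatives, of which 11 were in the table and 8 passed the filter. Bcl2a1a, Bcl2a1b and Bcl2a1d, near-identical survival genes of leukocytes, stayed below the filter and were listed at the lowest value in 9, 12 and 8 of 16 libraries. Bcl2a1d reached 6.28 in TMP195 replicate 1, the library highest in leukocyte markers. Bnip3 and Bnip3l encode BH3-containing proteins that direct the removal of mitochondria and are induced by low oxygen. Bnip3 was 11.76, 11.35, 11.73 and 11.31 in Vehicle, 11.82, 12.31, 12.29 and 11.68 in TMP195, 11.82, 11.03, 11.10 and 11.42 in MYCi975, and 11.69, 11.25, 11.30 and 11.23 in Combo. TMP195 replicates 2 and 3 stood above all other libraries.

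Bnip3 differed by 0.49 between TMP195 and Vehicle (SE 0.19, unadjusted p = 0.0185, limma adjusted p = 0.945) and by -0.66 between Combo and TMP195 (SE 0.19, unadjusted p = 0.00266, adjusted p = 0.582). With libraries weighted by their spread, Bnip3 was among 65 of 15715 genes called between Combo and TMP195. The main model called 0 there, and fits with single libraries left out called 0 to 2. In this comparison 7 of 9 leukocyte markers were also lower at an unadjusted limma p under 0.05. Their part in the Bnip3 difference was not tested. Bnip3l differed by 0.25 (SE 0.14) between TMP195 and Vehicle and by -0.40 (SE 0.14, unadjusted p = 0.00914) between Combo and TMP195. Bnip3l was 12.57 to 12.71 in MYCi975, below all 4 Vehicle libraries (12.79 to 12.91), which held for 0.706% of all genes in that direction. Its difference there was -0.18 (SE 0.14, unadjusted p = 0.193). Bcl2l12 was the highest relative in MYCi975 against Vehicle (0.32, SE 0.15, unadjusted p = 0.0484, limma adjusted p = 0.999). Bmf, a BH3-only gene, was the highest in Combo against Vehicle (0.33, SE 0.30). Bcl2l2, the survival gene of BCL-W, differed from Vehicle by 0.09, -0.03 and -0.04 (SE 0.11 each) in TMP195, MYCi975 and Combo.

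**Figure D5:**
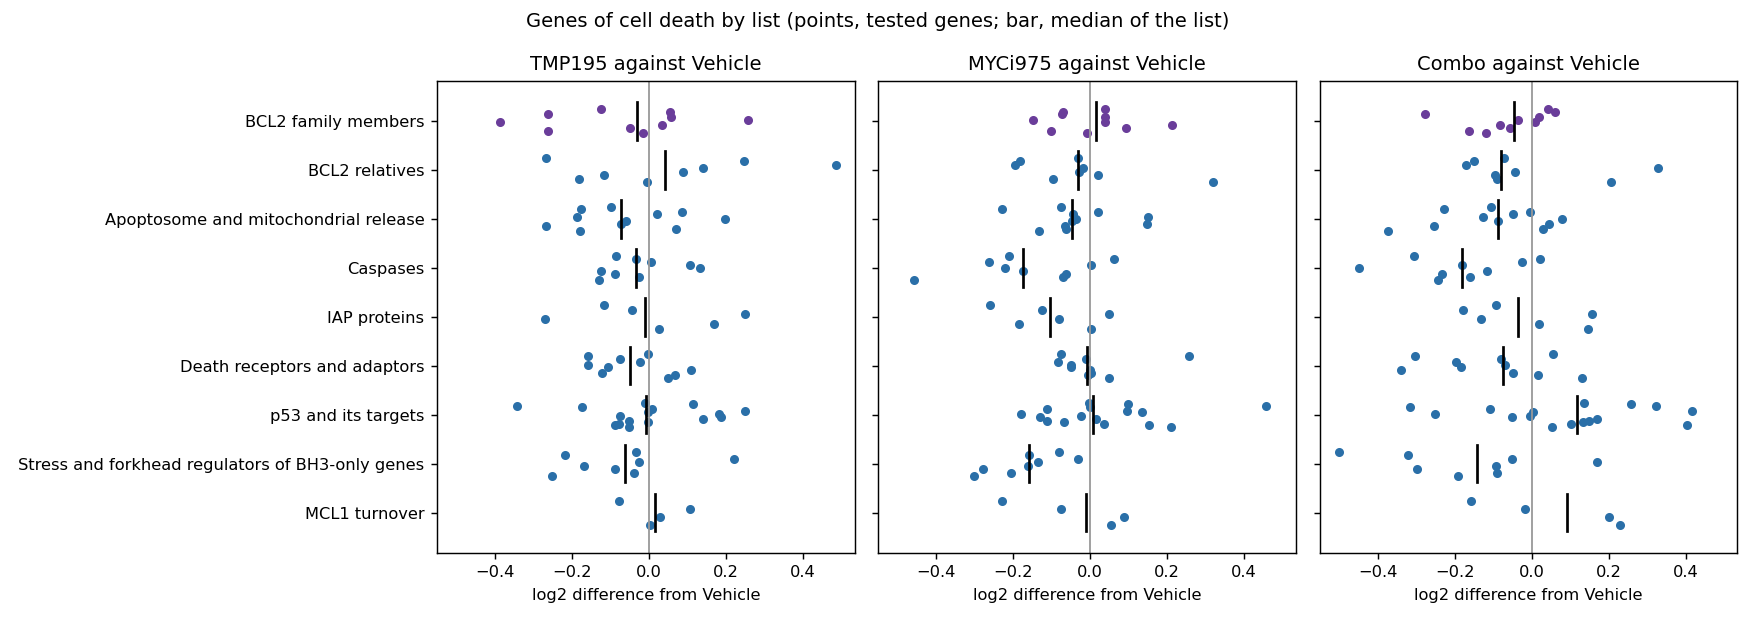
Log2 differences from Vehicle (x axis) of the tested genes (points) of the BCL2 family and 8 further cell death lists (y axis) in TMP195, MYCi975 and Combo; bars are list medians. Caspases lie mostly left of 0 in MYCi975 (median -0.17) and Combo (-0.18), and Bnip3 (0.49) is the point farthest to the right in TMP195.

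Downstream of the pore, no gene of the other lists passed limma's adjusted test in any comparison. Of 9 caspase genes, 6 were below Vehicle in TMP195 (median -0.03), 7 in MYCi975 (-0.17) and 8 in Combo (-0.18). The shares of all tested genes below Vehicle were 53.7%, 52.9% and 52.6%. Genes of a list share libraries and are not separate observations. Casp4, an inflammatory caspase, was 8.62 to 8.95 in Combo, below all libraries of Vehicle (9.03 to 9.74) and of TMP195 (9.002 to 9.60). The Casp4 difference was -0.45 against Vehicle (SE 0.17, unadjusted p = 0.015, limma adjusted p = 0.987) and -0.58 against TMP195 (SE 0.17, unadjusted p = 0.00274, adjusted p = 0.582). Casp4 too was among the 65 of 15715 genes called between Combo and TMP195 with weighted libraries, where the main model called 0. Groups did not overlap in the lower direction for 1.53% and 1.62% of all genes in these comparisons. Casp1 was the lowest caspase in MYCi975 (-0.46, SE 0.22, unadjusted p = 0.0519).

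Of 11 genes of the apoptosome and of release from mitochondria, 7 were below Vehicle in TMP195 (median -0.07) and 8 in both MYCi975 (-0.05) and Combo (-0.09). Among all tested genes 53.7%, 52.9% and 52.6% were lower. Cycs, which encodes cytochrome c, differed by -0.27 in TMP195 (SE 0.12, unadjusted p = 0.0436, limma adjusted p = 0.945) and by -0.25 in Combo (SE 0.12). Aifm1 was the lowest of them in Combo (-0.37, SE 0.25). Among 6 genes of caspase inhibitors, Birc5 was the lowest in TMP195 (-0.27, SE 0.12) and Xiap in MYCi975 (-0.26, SE 0.12). The 10 tested genes of death receptors and adaptors had a median of -0.05 in TMP195, of -0.01 in MYCi975 and of -0.07 for Combo, with Fas the lowest in Combo (-0.34, SE 0.25).

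Of the upstream regulators, 16 genes of p53 and its targets had a median difference from Vehicle of -0.01 for TMP195, 0.01 for MYCi975 and 0.12 for Combo. In Combo 11 of the 16 were higher, Sesn1 most (0.42, SE 0.18, unadjusted p = 0.0329, limma adjusted p = 0.987), whereas Trp53 itself was the lowest (-0.32, SE 0.14, unadjusted p = 0.0368, adjusted p = 0.987). The members known as p53 targets, Bax, Bbc3 and Pmaip1, differed by -0.06, -0.08 and 0.04 in the same comparison. Of 8 stress and forkhead regulators of BH3-only genes, 7 were below Vehicle in TMP195, 8 in MYCi975 and 7 in Combo, with medians of -0.06, -0.16 and -0.14. The shares of all tested genes below Vehicle were 53.7%, 52.9% and 52.6%. In MYCi975 0 of these 8 regulators had an unadjusted limma p under 0.05. Trib3, a target of the stress factor CHOP, was the lowest in Combo (-0.50, SE 0.20, unadjusted p = 0.025, limma adjusted p = 0.987). Foxo3, a forkhead factor known to drive Bcl2l11, was the highest in TMP195 (0.22, SE 0.09, unadjusted p = 0.0257, adjusted p = 0.945), while Bcl2l11 differed there by 0.06. Early stress genes of tissue dissociation were also lower in 7 of 8 cases in both TMP195 and Combo (medians -0.31 and -0.20), and their part in these values was not tested.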

How the data were processed

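The deposited table gives 24334 mouse genes in 16 libraries, 4 per group, as variance-stabilised values close to log2, made by the authors, and the file's name is the source for the transformation. Salmon is named without a version and hg38 as the build, per the submitters' processing notes, although the identifiers are mouse. Of the variance stabilisation, neither the tool nor its settings are stated in the sources used here. Depth per library is unknown, since the values keep no counts. Genes at the lowest value numbered 1960 to 3130 per library. Per the labels' protocols the kit was stranded. Symbols were matched by identifier without version for 23150 genes (95.1%).

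Differences, SEs and two-sided p-values came from limma 3.58.1 in R 4.3.3, with 1 mean per group, an intensity trend and Benjamini-Hochberg adjustment over 15715 genes, called under 0.05. The test was checked on simulated data for TMP195 against Vehicle over 15715 genes. Of 50 genes shifted by 0.4 log2 units 7 were called, and of 50 shifted by 1, 42. Another 50 each were shifted by 2 and 3 (50 and 49 called), and 9 unshifted genes were called. Values were drawn independently for each gene and library, so library-wide differences were not simulated. Calls of large shifts ease the adjusted threshold for small ones, whereas the real comparisons had 0 calls. Gene lists, likeness (Pearson's r after group means were subtracted) and named genes followed written rules: all members, all relatives, and the highest and lowest gene of each other list. Other genes (Mdm2, Btrc, Bnip3l and the p53 members) are relatives, list extremes or closest neighbours. The members and lists were chosen with earlier results of these data known. Alternatives were other filters, moderation, scaling, weights, a replicate block, a leukocyte covariate, the compared groups alone and each library left out, and, chosen after seeing the data, dropping TMP195 replicates 1 and 2 (highest in leukocyte markers) or all libraries numbered 4. Promoters came from RefSeq (GRCm38.p6).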

Additional observations from a re-analysis of the deposited data

Results flagged for a closer look

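Bcl2 in TMP195 replicate 2, at 10.71, stood apart from the other 3 TMP195 libraries (10.94, 10.94 and 10.93): the gap made up 0.949 of the range of the group, above Dixon's 95% limit for 4 values. It was the only such case among 40 groups of 4 libraries examined for the 10 genes, and chance gives about 1 in 20. Without TMP195 replicate 2 the difference from Vehicle was -0.33 (SE 0.14).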

How the results depend on the processing

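None of the 10 genes was called under any of 28 alternatives. Over 1664 recomputed differences the sign changed in 139, which touched 40 of the 60 gene-by-comparison values, none larger than 0.29 in size. Bcl2 kept its sign in TMP195 against Vehicle (-0.47 to -0.30; unadjusted p from 0.00175 to 0.0634, adjusted p from 0.418 to 1) and in Combo against TMP195 (0.34 to 0.48; unadjusted p from 0.0012 to 0.0571, adjusted p from 0.0948 to 1). Counts of called genes over the whole table were 0 in 180 of 194 recomputed values. Without an intensity trend 1 gene was called in Combo against TMP195, and 1 in the test of any difference among the groups; the latter was also 1 with robust moderation, median centring or sample weights (Cd93 each time). Sample weights gave 65 genes in Combo against TMP195, none of them a member, and the compared groups alone gave 1 (Gm15452) in Combo against Vehicle. With single libraries left out the counts ran from 0 to 2 for TMP195 against Vehicle, Combo against TMP195 and any difference (Csf1r and Ccr2 in all 3, without TMP195 replicate 3; Cd93 in the latter 2, without Combo replicate 4), from 0 to 1 for MYCi975 against Vehicle and Combo against MYCi975 (Gm15801, without MYCi975 replicate 2), and were 0 for Combo against Vehicle and the interaction. The cause was not tested, and these genes were named after their values were seen.

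With replicate number as a block, 0 genes were called in each comparison, and Bcl2 had an adjusted p of 0.779 in TMP195 against Vehicle. The labels give no meaning to the numbers: deviations of same-numbered libraries correlated between -0.24 and 0.43, over 0.1 in 15 of 24 pairs, and 9 of 16 libraries correlated best with their own number. Bbc3 failed the stricter filter. Scaling moved the median of all genes by at most 0.04. Depth is unknown. At this group size differences near 0.4 log2 units were rarely called in simulation (7 of 50). That simulation held larger shifts and no library-wide differences, so the share called may be lower in these data.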
